A study of Sus scrofa with 24 samples.

Results

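Fatty acid synthesis, chain elongation and desaturation were followed through 10 enzyme genes, chosen by gene symbol: FASN, ACACA, ACLY, SCD, ELOVL5, ELOVL6, ME1, FADS1, FADS2 and ACSS2. All 10 were among the 12017 genes of the table, each at 1 locus. The tissue was longissimus dorsi, a long back muscle, of F1 Duroc × Luchuan pigs, taken 25 minutes after slaughter at 210 ± 6 days of age. The groups were 12 animals of high and 12 of low intramuscular fat (IMF), each animal 1 library, all fed alike on 1 farm. The F1 generation numbered 265, by 8 boars of the Duroc breed out of 112 sows of the Luchuan breed. The fat content, litter and sex of each animal are not used here. PolyA RNA was sequenced as 150-base paired-end reads, and levels are FPKM, fragments scaled to transcript length and library size. Animal numbers follow accession order within each group and pair no animals.

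New fatty acids are made in the cytosol from acetyl-CoA, which ATP citrate lyase (ACLY) frees from citrate and acetyl-CoA synthetase ACSS2 makes from acetate. Acetyl-CoA carboxylase (ACACA) turns it into malonyl-CoA, and fatty acid synthase (FASN) builds palmitate from it with NADPH, part of which comes from malic enzyme ME1. The elongase ELOVL6 lengthens palmitate to stearate, stearoyl-CoA desaturase (SCD) makes oleate from stearate, and ELOVL5, FADS1 and FADS2 act mainly on polyunsaturated fatty acids. In pigs the main site of this synthesis is the fat cell, and a muscle sample holds fat cells between its fibres.

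FASN, ELOVL6, SCD, ELOVL5, ME1, ACACA and ACSS2 had higher mean levels in high IMF muscle. ACLY had a lower mean and a wider spread there, and the front-end desaturases FADS1 and FADS2 had close to equal means in both groups. None of the 10 passed the test over all genes (limma, Benjamini-Hochberg adjusted p under 0.05), where 6 of 11757 genes, or 0.051%, passed. At an unadjusted p under 0.05, 5 of the 10 were higher in high IMF (ELOVL6, ELOVL5, FASN, SCD and ME1), and 6.79% of all genes tested were. None of the 10 was lower at that level, as were 0.893% of all genes. The 10 were chosen with earlier results of these data known, and FASN, SCD, ELOVL5 and ELOVL6 correlate within groups. The 5 are therefore not separate findings, and the count against all genes is a description, not a test. The log2 fold change of FPKM + 1 was positive for 7 of the 10, a share no higher than the 73.4% of all genes tested that were positive. Its median was 0.37 over the 10, against 0.077 over all genes tested. With libraries scaled by trimmed mean of M values (TMM), which brings the median of all genes to -0.00086, the same 5 were under 0.05, where 2.81% of all genes were higher and 2.34% lower, and 6 of the 9 members above the filter were positive, with a median of 0.28, against 49.8% of all genes. No member separated the groups: the ranges of high and low IMF overlapped in all 10, as they did in each of the 11757 genes tested (0.0% without overlap). Some counts of animals beyond a level or range of the other group are given below without a share of all genes. These only describe the gene named, and whether they are common over all genes was not tested.

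**Figure D1:**
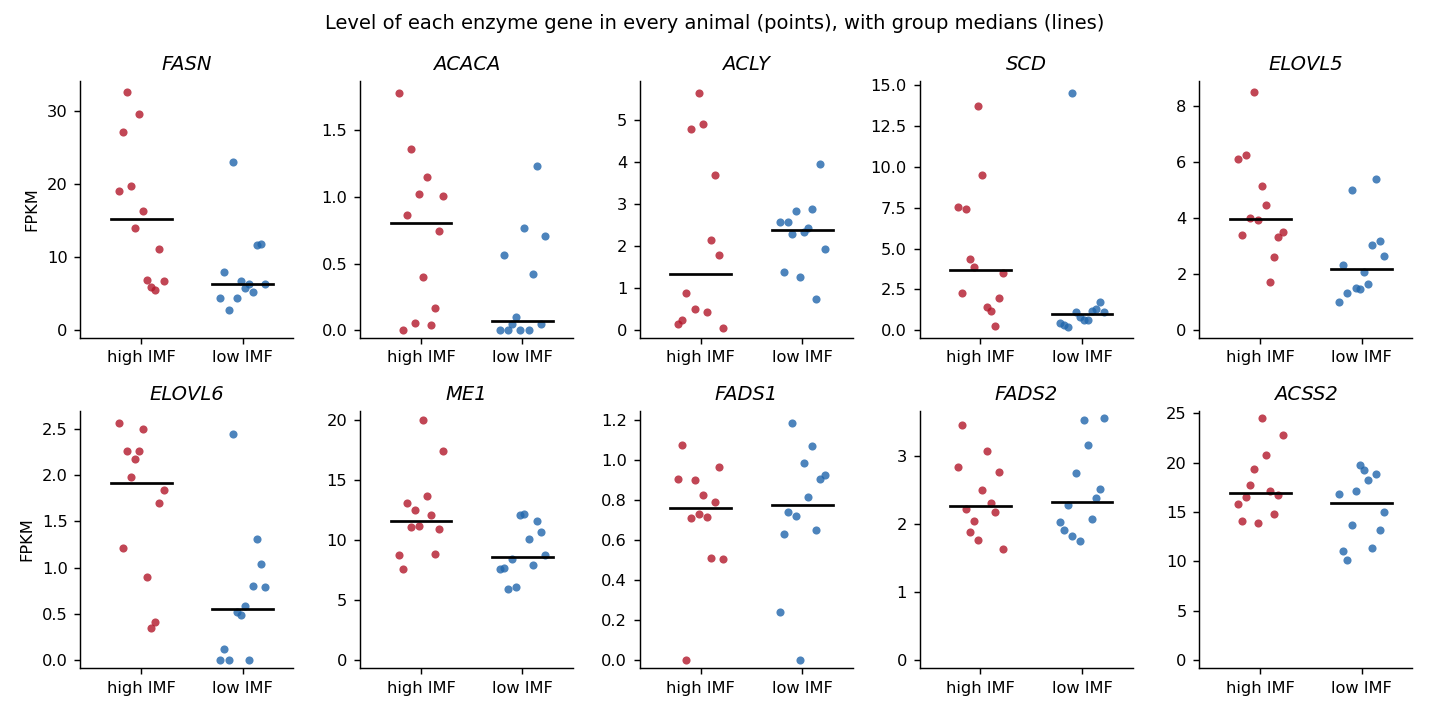
FPKM of each enzyme gene in each of the 24 animals (points), high IMF left and low IMF right, with a line at the group median; each panel has its own linear axis from 0. The medians of SCD were 3.69 FPKM in high and 0.967 FPKM in low IMF, and those of FADS2 were 2.26 and 2.33 FPKM.

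The libraries carried strong muscle fibre signal, with ACTA1, skeletal actin, at 1012 to 27209 FPKM in high and 8975 to 34774 FPKM in low IMF. All 12 muscle fibre markers were in the table, but MB, myoglobin, was listed at 0 in 4 libraries and reached only 2.35 FPKM, so a listed transcript need not carry all of a gene's reads. NDUFAB1, a gene that every cell uses, was listed at 0 in low IMF animal 10 and at 0.0866 FPKM in low IMF animal 4, so a 0 is read here only as listed at 0. By inference, libraries held between 32.9 and 40.8 mega-reads. High IMF animal 7 and low IMF animal 10 stood apart, with 20.2% and 18.5% of FPKM in their 10 most abundant genes, against 24.7% to 33.0% in the other 22. Without both, the same 5 members had an unadjusted p under 0.05.

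FASN, on chromosome 12 at 922418 to 937089 (Sscrofa11.1, plus strand, 41 exons in its single listed transcript), ranged over 5.56, 15.2 and 32.6 FPKM in high IMF (lowest, median, highest) and 2.83, 6.31 and 23.1 FPKM in low IMF. The 3 highest animals, at 27.1 to 32.6 FPKM, were all high IMF, while the other 9 lay within the low IMF range, 4 of them at 5.56 to 6.82 FPKM. FASN averaged 16.2 ± 9.60 FPKM in high and 8.05 ± 5.46 FPKM in low IMF (SD, n = 12 each). The log2 fold change was 0.88 (SE 0.302, limma p = 0.00719, adjusted p = 0.456).

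ACACA, which supplies FASN with malonyl-CoA, lies on the same chromosome at 38583567 to 38875134 (minus strand, 55 exons) and had the lowest mean of the 10 in both groups, although in high IMF FADS1 was above it in only 6 of 12 animals and below it by median. In high IMF the values were 0, 0.0358, 0.0513, 0.170, 0.402, 0.743, 0.864, 1.01, 1.02, 1.15, 1.36 and 1.78 FPKM. In low IMF ACACA was listed at 0 in 4 animals, and the others had 0.0476, 0.0481, 0.0966, 0.422, 0.565, 0.704, 0.770 and 1.23 FPKM. The medians were 0.803 FPKM in high and 0.0724 FPKM in low IMF, with 9 of 12 high IMF animals above the low IMF median. On the log2 scale the difference was 0.35 (SE 0.180, limma p = 0.0623, adjusted p = 0.661), and with a pseudocount of 0.1 it was 1.06 (SE 0.577, adjusted p = 0.666). A RefSeq protein-coding gene overlaps this locus, and it is not stated whether strand was used in assembly. Whether exons of the 2 overlap is not given here, so it is not known whether their reads were mixed.

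ACLY, also on chromosome 12, at 20796741 to 20841291 (plus strand), differed from the other enzymes in its spread. It averaged 2.10 ± 2.10 FPKM in high and 2.27 ± 0.856 FPKM in low IMF (SD, n = 12 each). Of 12 high IMF animals, 5 lay below the lowest low IMF animal, at 0.0442 to 0.506 FPKM, and 3 lay above the highest, at 4.78 to 5.65 FPKM. The low IMF animals ranged over 0.732, 2.38 and 3.96 FPKM (lowest, median, highest). At least 8 of 12 high IMF animals outside the low IMF range was seen in 0.57% of the 11757 genes tested, and among the 10 members in ACLY alone. The difference in level did not pass (log2 fold change -0.34, SE 0.295, limma adjusted p = 0.800; -0.88 and adjusted p = 0.693 with a pseudocount of 0.1), although 10 of 12 low IMF animals lay above the high IMF median. Both listed ACLY transcripts are isoforms added by the authors' assembly, of 4286 and 4283 bases with 28 exons each. No reference transcript of ACLY is used here, so reads assigned elsewhere are not counted in this sum.

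ACSS2, on chromosome 17 at 38260266 to 38316035 (plus strand), had the highest listed level of the 10, at 17.8 ± 3.38 FPKM in high and 15.4 ± 3.44 FPKM in low IMF (SD, n = 12 each). It ranged over 13.9, 16.9 and 24.5 FPKM in high and 10.2, 15.9 and 19.8 FPKM in low IMF (lowest, median, highest). The 3 highest animals were high IMF and the 5 lowest were low IMF. Its log2 fold change was 0.21 (SE 0.119, limma p = 0.0828, adjusted p = 0.685). Of its 2 reference transcripts, the one with 19 exons averaged 15.4 ± 3.22 FPKM in high and 12.8 ± 3.13 FPKM in low IMF, and the one with 18 exons averaged 2.44 ± 0.982 FPKM in high and 2.56 ± 1.69 FPKM in low IMF. The shorter transcript held 13.7 ± 5.18% of the sum in high and 16.5 ± 9.98% in low IMF (two-sided permutation test, p = 0.407, adjusted p = 0.518 over both genes with more than 1 listed transcript, n = 12 each). For ACLY the shorter transcript held 44.0 ± 19.5% in high and 48.7 ± 15.1% in low IMF (same permutation test, p = 0.518, adjusted p = 0.518, n = 12 each). The ACLY transcripts share start, end and exon number and are 4286 and 4283 bases long, so few bases can tell them apart. Their shares depend on how the authors' assembly divided the reads.

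**Figure D2:**
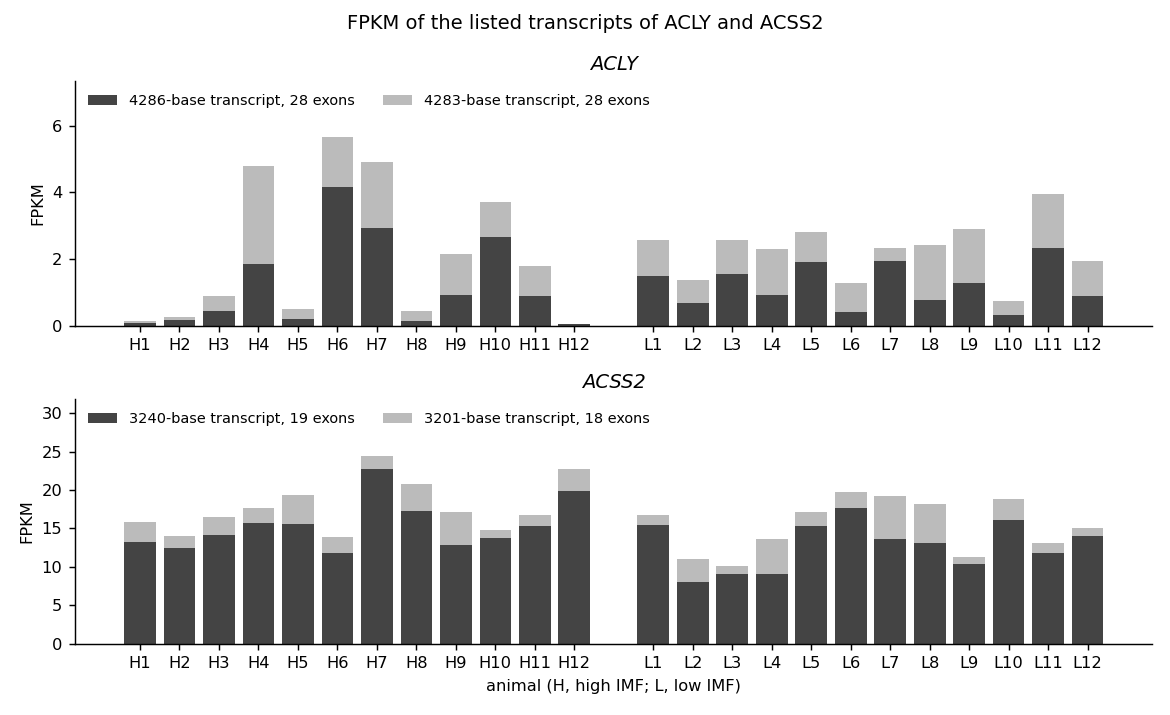
Stacked FPKM (linear axis from 0) of both listed transcripts of ACLY and of ACSS2 in each animal, high IMF (H) left and low IMF (L) right. ACLY sums in high IMF were below 0.9 FPKM in 6 animals and reached 5.65 FPKM in animal 6, while ACSS2 was dominated by its 19-exon transcript in every animal.

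ME1, on chromosome 1 at 82799873 to 82989908 (plus strand, 14 exons), ranged over 7.58, 11.6 and 20.01 FPKM in high and 5.93, 8.59 and 12.2 FPKM in low IMF (lowest, median, highest). Of the high IMF animals, 11 exceeded the low IMF median and 5 exceeded every low IMF animal. At least 11 of 12 above that median was seen in 6.79% of all genes tested, and ME1, SCD and ELOVL5 were the members that did so. ME1 averaged 12.3 ± 3.56 FPKM in high and 9.09 ± 2.20 FPKM in low IMF (SD, n = 12 each). For ME1 the log2 fold change was 0.38 (SE 0.140, limma p = 0.0112, adjusted p = 0.518).

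ELOVL6, on chromosome 8 at 112038883 to 112190071 (plus strand, 5 exons), had the smallest p of the 10. Its locus overlaps a RefSeq lncRNA, with the same limits as for ACACA. In high IMF the ELOVL6 values were 0.355, 0.410, 0.899, 1.21, 1.70, 1.84, 1.98, 2.17, 2.26, 2.26, 2.50 and 2.56 FPKM. In low IMF ELOVL6 was listed at 0 in 3 animals, and the others had 0.125, 0.488, 0.518, 0.586, 0.794, 0.808, 1.04, 1.31 and 2.44 FPKM. Apart from the last, low IMF animal 4, no low IMF animal exceeded 1.31 FPKM, and 8 high IMF animals did. The log2 fold change was 0.71 (SE 0.202, limma p = 0.00169, adjusted p = 0.269). With a pseudocount of 0.1, which weights the values near 0 more, it was 1.67 (adjusted p = 0.363).

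SCD, on chromosome 14 at 111461157 to 111478031 (plus strand, 6 exons), had a log2 fold change of 1.08 (SE 0.384, limma p = 0.00947, adjusted p = 0.497), the largest of the 10 at a pseudocount of 1. With a pseudocount of 0.1 it was 1.60, below the 1.67 of ELOVL6. It ranged over 0.234, 3.69 and 13.7 FPKM in high and 0.198, 0.967 and 14.5 FPKM in low IMF (lowest, median, highest). The highest value of all 24 belonged to low IMF animal 4, and the other 11 low IMF animals reached at most 1.70 FPKM, a level that 9 high IMF animals exceeded. The means were 4.76 ± 4.03 FPKM in high and 2.01 ± 3.97 FPKM in low IMF (SD, n = 12 each), a ratio of 2.37. Without low IMF animal 4 the low IMF mean was 0.867 ± 0.465 FPKM (SD, n = 11), the ratio 5.49 and the log2 fold change 1.33 (SE 0.313, limma p = 0.000257, adjusted p = 0.159). That animal is singled out here for its SCD value. Over the 24 fits with 1 animal left out, the SCD log2 fold change was 0.92 to 1.33, and the omission of low IMF animal 4 gave the largest.

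ELOVL5, on chromosome 7 at 46860776 to 46932950 (minus strand, 8 exons), lengthens polyunsaturated chains but sided with FASN and SCD and not with FADS1 and FADS2 in its level. It ranged over 1.71, 3.97 and 8.51 FPKM in high and 1.01, 2.19 and 5.39 FPKM in low IMF (lowest, median, highest). The 3 highest animals were high IMF, and 5 low IMF animals lay below every high IMF animal. ELOVL5 averaged 4.41 ± 1.85 FPKM in high and 2.55 ± 1.41 FPKM in low IMF (SD, n = 12 each). Its log2 fold change was 0.63 (SE 0.198, limma p = 0.00402, adjusted p = 0.389).

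FADS1 and FADS2, which introduce double bonds into polyunsaturated chains ahead of those already there, are neighbours on chromosome 2. FADS2 lies at 9632454 to 9667044 (minus strand) and FADS1 at 9737111 to 9750506 (plus strand), with 70067 bases between the listed transcripts of 12 exons each. FADS2 ranged over 1.63, 2.26 and 3.45 FPKM in high and 1.75, 2.33 and 3.56 FPKM in low IMF (lowest, median, highest), and the groups covered nearly the same range. It averaged 2.39 ± 0.551 FPKM in high and 2.48 ± 0.638 FPKM in low IMF (SD, n = 12 each), with a log2 fold change of -0.034 (SE 0.105, limma adjusted p = 0.960). FADS1 in high IMF was listed at 0 in animal 3 and had 0.507 to 1.07 FPKM in the others (0.507, 0.513, 0.709, 0.715, 0.732, 0.788, 0.826, 0.901, 0.906, 0.964 and 1.07). In low IMF it was listed at 0 in animal 6 and had 0.241, 0.629, 0.652, 0.719, 0.738, 0.815, 0.903, 0.923, 0.984, 1.07 and 1.18 FPKM in the others. The FADS1 groups covered the same range, with a log2 fold change of -0.0075 (SE 0.121, limma adjusted p = 0.991). The locus of FADS2 overlaps 2 RefSeq lncRNAs, with the same limits as for ACACA. The SD of FADS2 was 23.1% of its mean in high and 25.7% in low IMF, against 84.8% and 198% for SCD. The 198% depends on low IMF animal 4, without which SCD in low IMF was 0.867 ± 0.465 FPKM (SD, n = 11).

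**Figure D3:**
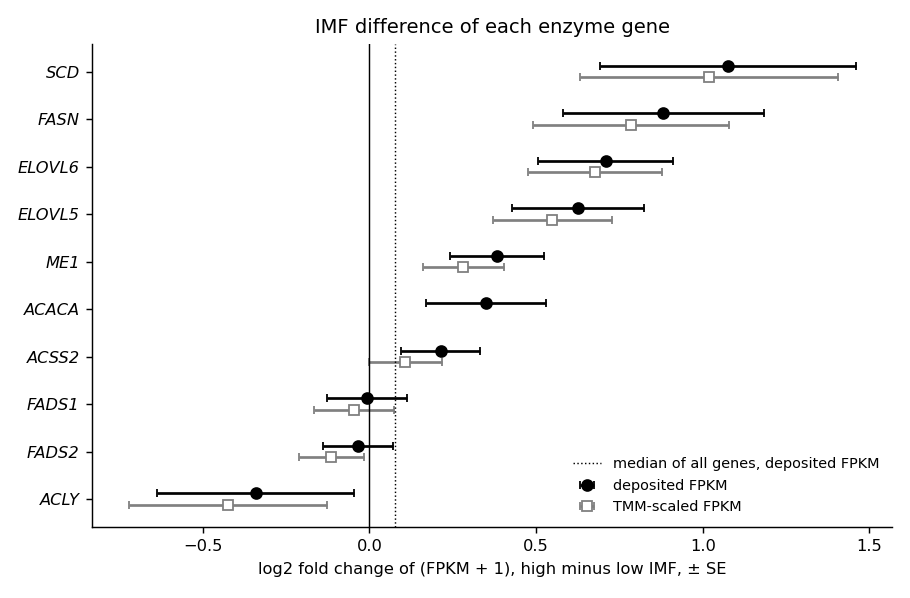
Log2 fold change of FPKM + 1, high minus low IMF, with its standard error, for the 10 enzyme genes, from the deposited FPKM (filled) and from TMM-scaled FPKM (open); the dotted line is the median of all genes, 0.077. SCD, FASN, ELOVL6 and ELOVL5 lie at 0.63 to 1.08, and FADS1 and FADS2 at -0.0075 and -0.034; ACACA has no TMM value because its scaled mean fell under the filter of 0.5 FPKM.

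FPKM allows levels to be set side by side between genes. In high IMF the order of mean FPKM was ACSS2, FASN, ME1, SCD, ELOVL5, FADS2, ACLY, ELOVL6, FADS1 and ACACA. In low IMF it was ACSS2, ME1, FASN, ELOVL5, FADS2, ACLY, SCD, FADS1, ELOVL6 and ACACA. In high IMF, ACSS2 exceeded FASN in 7 of 12 animals and FASN exceeded ME1 in 7 of 12. In low IMF, ACSS2 exceeded ME1 in all 12 animals and FASN exceeded ELOVL5 in all 12. SCD had a higher mean than ELOVL5 in high IMF but exceeded it in only 5 of 12 animals.

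FASN, SCD, ELOVL5 and ELOVL6 varied together from animal to animal within each group. Over the 24 animals, with log2(FPKM + 1) centred on each group's mean so that the IMF difference is removed, all 6 correlations among these genes passed (Pearson r of 0.63 to 0.86, Spearman rho of 0.67 to 0.93). The largest permutation p adjusted over all 45 pairs of members was 0.00681 for r and 0.00379 for rho. SCD and ELOVL6 had r = 0.86 and rho = 0.93, each with permutation p = 1e-05, the smallest that 100000 resamples can give (adjusted p = 0.000225). Within high IMF alone the 6 values of r were 0.51 to 0.88, and within low IMF alone 0.68 to 0.87 (n = 12 each). Leaving out the 2 animals farthest from the median of the first gene, r was 0.52 to 0.84.

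ME1 and ACSS2 formed a second, separate pair, with r = 0.74 and rho = 0.72 (permutation p = 5e-05 and 0.00017, adjusted p = 0.000562 and 0.00127), and r = 0.65 without the 2 animals farthest from the median. Within high IMF r was 0.89 and within low IMF 0.62. High IMF animal 7 was the highest of all 24 in both genes. The other 38 pairs did not pass (r of -0.27 to 0.41, smallest adjusted permutation p = 0.276 for r and 0.0736 for rho). The smallest for rho belonged to ACACA with ELOVL6 (r = 0.40, rho = 0.51), followed by ACACA with ELOVL5 (r = 0.39, rho = 0.49, adjusted permutation p = 0.289 and 0.0905). FASN and ACACA, successive enzymes, had r = 0.19 (rho = 0.24, permutation p = 0.397 and 0.279), and FASN and ACLY had r = 0.015 (rho = -0.10, permutation p = 0.951 and 0.664). FADS1 and FADS2 had the largest r of these, 0.41 (rho = 0.45, permutation p = 0.0520 and 0.0360). All values of 1 animal share a library and its denominator, and some animals may share a litter, which limits how independent the points are.

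**Figure D4:**
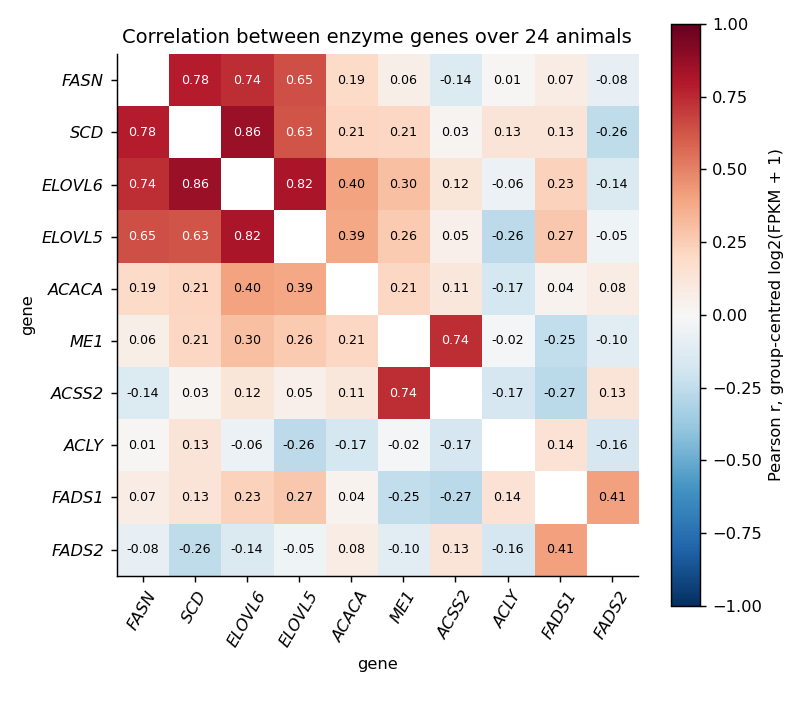
Pearson r between each pair of the 10 enzyme genes over 24 animals, from log2(FPKM + 1) centred within each IMF group. The block of FASN, SCD, ELOVL6 and ELOVL5 holds values of 0.63 to 0.86, and outside it only ME1 with ACSS2, at 0.74, exceeds 0.41.

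**Figure D5:**
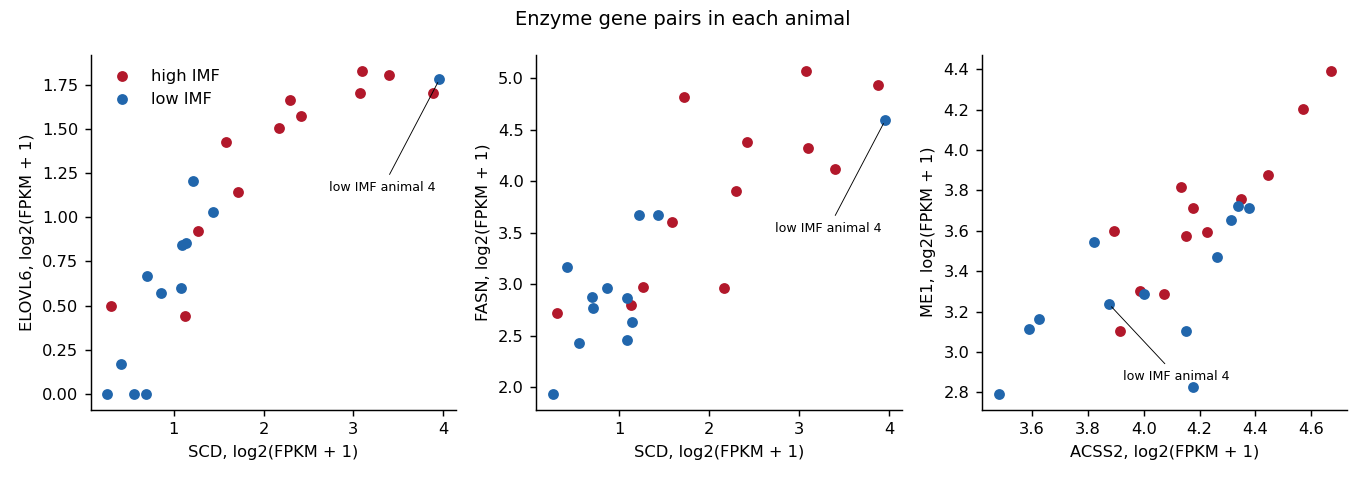
Each point is 1 animal on log2(FPKM + 1) axes, for SCD with ELOVL6, SCD with FASN and ACSS2 with ME1, high IMF in red and low IMF in blue. Low IMF animal 4 lies among the high IMF animals in both panels with SCD and among the other low IMF animals in ACSS2 and ME1.

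Low IMF animal 4 and high IMF animals 9 and 10 went against their group in part of this set of genes. Low IMF animal 4 had rank 1 of 24 in SCD (14.5 FPKM), rank 3 in ELOVL6 (2.44 FPKM), rank 4 in FASN (23.1 FPKM) and rank 6 in ELOVL5 (4.99 FPKM). Its ranks in ME1 and ACSS2 were 18 and 20. High IMF animal 10 had the lowest FASN and SCD of its group, at 5.56 and 0.234 FPKM, and high IMF animal 9 the lowest ELOVL5 and ELOVL6, at 1.71 and 0.355 FPKM. Still, animal 9 exceeded the low IMF median in SCD, and animal 10 did in ELOVL5. High IMF animals 9 and 10 had ranks 7 and 15 in ME1 and 11 and 17 in ACSS2.

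For each enzyme gene, the 3 genes whose log2(FPKM + 1) was most like it over the 24 animals were taken from those with a symbol and a mean of at least 1 FPKM, without centring, so that the IMF difference counts towards the likeness. FASN was most like THRSP (r = 0.87), DGAT2 (0.86) and ALDOC (0.85), where its median r with the 8011 genes compared was 0.17. SCD was most like ELOVL6 (0.90), THRSP (0.89) and FASN (0.84), and ELOVL6 was most like THRSP (0.92), SCD (0.90) and ELOVL5 (0.88). ELOVL5 was most like EMP1 (0.92), ARL6IP1 (0.90) and HACD2 (0.89). ME1 was most like TMEM245 (0.80), BRMS1L (0.80) and RNF14 (0.79), and ACSS2 like OAZ2 (0.82), CPT2 (0.80) and TMEM245 (0.80).

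The remaining genes had looser matches. The closest were WASF2 (0.69), ZDHHC24 (0.68) and HPS1 (0.67) for ACACA, and C19orf47 (0.64), HSPD1 (0.61) and SGSM3 (0.59) for ACLY. They were LRRC32 (0.76), ECM1 (0.70) and MON1B (0.68) for FADS1, and BPNT1 (0.66), QSOX1 (0.62) and FMNL3 (0.61) for FADS2. The median r with all genes compared was 0.19, -0.066, 0.013 and 0.10 for these members, in the order given.

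Markers of fat cells moved with the same contrast. Of 11 adipocyte markers in the table, 10 had a positive log2 fold change (median 0.65) and PLIN1 a negative one (-0.088), where 73.4% of all genes were positive. LEP and TUSC5 passed over all genes, where 0.051% passed, and with TMM scaling ADIPOQ passed as well (limma adjusted p = 0.0359, against 0.0544 without). Their summed level was 155.9 to 318 FPKM in high and 101.5 to 235.6 FPKM in low IMF. The defining markers ADIPOQ, LEP, PLIN1, CIDEC and ADIG were all in the table, and their sum was 23.8 to 68.5 FPKM in high and 6.01 to 49.3 FPKM in low IMF, and each of the 12 high IMF animals exceeded the low IMF median. None of the 5 was at 0 in every library, and ADIG was listed at 0 in 4. Fewer fat cells and less RNA per fat cell cannot be told apart in whole muscle, and the part of fat cell number in the enzyme levels was not tested.

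Within groups, the defining marker sum correlated with ELOVL5 (r = 0.67, rho = 0.72, permutation p = 0.00055 and 0.00032, adjusted over 10 genes 0.0055 and 0.0032), and r was 0.55 without the 2 animals farthest from the median. It also passed for FASN (r = 0.49, rho = 0.56, adjusted permutation p = 0.0416 and 0.0144) and ELOVL6 (r = 0.50, rho = 0.65, adjusted permutation p = 0.0416 and 0.0045), for which r was 0.58 and 0.60 without the 2 farthest animals. For SCD only rho passed (r = 0.31, rho = 0.57, adjusted permutation p = 0.25 and 0.0144). ACACA had r = 0.50 (rho = 0.47, adjusted permutation p = 0.0416 and 0.0457), which was 0.33 without the 2 farthest animals. ME1 did not pass (r = 0.30, rho = 0.27, adjusted permutation p = 0.25 and 0.357), and FADS1, FADS2, ACLY and ACSS2 had r of -0.091 to 0.12. ADIPOQ contributes most to the defining marker sum, with a mean of 27.1 FPKM in high IMF, against 0.888 FPKM for LEP and 0.944 FPKM for ADIG. The sum over all 11 markers, to which CFD and FABP4 contribute most, passed with none of the 10 (r of -0.045 to 0.37). Low IMF animal 4, the highest in SCD, had the lowest sum of all 11 markers, 101.5 FPKM, and had rank 20 of 24 in the defining markers, at 13.9 FPKM.

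Markers of other cells are given as counts. Of 12 muscle fibre markers 4 were positive (median log2 fold change -0.17) and none passed, with sums of 18187 to 47306 FPKM in high and 20892 to 56214 FPKM in low IMF. Of 4 Schwann cell markers tested none was positive (median -0.55) and 1 passed, and the sums over the 5 in the table were 17.9 to 41.3 FPKM in high and 28.8 to 88.7 FPKM in low IMF. No endothelial (4 of 5 positive), macrophage (3 of 4) or fibroblast marker (2 of 5) passed.

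The animal identifiers begin with either of 2 combinations of 4 digits, whose meaning is not stated. Each set holds 6 high and 6 low IMF animals. Within the lower-numbered set, SCD, ELOVL5, ELOVL6 and FASN were higher in high IMF at an unadjusted limma p under 0.05, as were 8.14% of all genes (8.76% in either direction). Within the higher-numbered set, ELOVL6, ME1, ELOVL5 and SCD were, as were 2.27% of all genes (3.41% in either direction). No gene passed the adjusted threshold within either set (0.0%). In the lower- and the higher-numbered set the log2 fold change was 0.69 and 0.73 for ELOVL6, 0.62 and 0.63 for ELOVL5, 0.98 and 1.18 for SCD, and 0.83 and 0.94 for FASN.

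ELOVL6 ranged over 0.355 to 2.50 FPKM in high and 0 to 0.808 FPKM in low IMF of the lower-numbered set, and over 1.70 to 2.56 FPKM in high and 0 to 2.44 FPKM in low IMF of the higher-numbered set. Among the 10, ACLY had the largest difference of the IMF effect between sets, with a log2 fold change of 0.013 in the lower-numbered and -0.70 in the higher-numbered set. The difference of the IMF effect between sets passed for none of the 10 (limma interaction, adjusted p of 0.998 to 0.999) and for none of the 11757 genes, of which 387 (3.29%) had an unadjusted p under 0.05.

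The authors' deposited table gives a fold of low over high IMF per transcript, on a scale that is not stated. In the authors' deposited table the transcripts of ELOVL6 (fold 0.683, p-value 0.0119), ELOVL5 (0.755, 0.0147), ME1 (0.815, 0.0246), FASN (0.601, 0.0388) and SCD (0.525, 0.0454) had a p-value under 0.05, as did 3.84% of all listed transcripts in that direction. In the authors' deposited table no member passed by any of its 3 kinds of q-value, the smallest being 0.347. The limma fit over 21405 transcripts called none of the 12 transcripts of the 10 genes, where 0.0187% of all transcripts were called.

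Genes around the enzymes were read from lists of the pathway, and their counts of positive values stand against 73.4% positive among all genes tested (49.8% with TMM scaling). Of 7 measured genes of NADPH supply 6 had a positive log2 fold change and none passed. The transketolase gene TKT, at 7.60 ± 2.10 FPKM in high and 5.60 ± 1.68 FPKM in low IMF (limma adjusted p = 0.544), had the smallest p of them, followed by TALDO1 (log2 fold change 0.50) and ME3 (0.18). Of 5 genes of acetyl-CoA and malonyl-CoA supply 3 were positive and none passed. PC, pyruvate carboxylase, was 29.8 ± 7.54 FPKM in high and 21.6 ± 5.82 FPKM in low IMF (limma adjusted p = 0.451). SLC25A1, the mitochondrial citrate carrier that feeds ACLY, was 2.28 ± 1.27 FPKM in high and 2.90 ± 1.19 FPKM in low IMF. Its log2 fold change was -0.29 (limma adjusted p = 0.738), negative like that of ACLY, which did not pass either. ACACB, the mitochondrial acetyl-CoA carboxylase, had 0.24, and its listed level was far above that of ACACA, at 7.51 ± 2.59 FPKM in high and 6.45 ± 2.42 FPKM in low IMF.

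All 8 measured regulators had a positive log2 fold change, where 73.4% of all genes did, and none passed. Their median was 0.19. THRSP, a lipogenic protein of fat cells, was 3.23 ± 1.89 FPKM in high and 1.07 ± 1.12 FPKM in low IMF (log2 fold change 1.01, SE 0.273, limma adjusted p = 0.233). MLXIPL, the carbohydrate response factor ChREBP, had 0.34 and NR1H3, the oxysterol receptor LXR alpha, 0.31.

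Of 11 other genes of elongation and desaturation 10 were positive and none passed, and 5 of 11 were positive with TMM scaling. HACD2, a dehydratase of the elongation cycle, was 2.40 ± 0.754 FPKM in high and 1.38 ± 0.535 FPKM in low IMF (log2 fold change 0.51, SE 0.130, limma adjusted p = 0.223). TECR, the reductase of that cycle, had 0.15 (0.044 with TMM scaling) and CYB5A, the electron donor of desaturases, 0.15 (0.049 with TMM scaling). All 4 acyl-CoA synthetases measured were positive (3 of 4 with TMM scaling), with ACSL5 at 0.23, ACSL1 at 0.29 and ACSL3 at 0.16, and none passed. All 5 genes of mitochondrial fatty acid synthesis were positive, with and without TMM scaling, and none passed. Their smallest p belonged to NDUFAB1 (0.95, SE 0.458, limma adjusted p = 0.643), which was at or near 0 in low IMF animals 4 and 10, followed by CBR4 (0.25) and OXSM (0.35).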

How the data were processed

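The authors deposited 1 table of FPKM values per assembled transcript and animal, beside a fold (ratio), p-values and q-values of their own test, per the file headers. No header names the unit FPKM, which was inferred: the values are not whole and sum to a different total in each library. HISAT2 2.0.5, StringTie 1.3.3 and Sscrofa11.1 are listed in the submitters' processing notes, without roles. Every one of the 22154 transcripts is above 0 in at least 19 libraries.

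Transcript FPKM was added up per symbol and chromosome; reads shared between isoforms were divided by the authors' assembly. Values of log2(FPKM + 1), high minus low IMF, were tested with limma 3.58.1 (R 4.3.3, trend and robust moderation) where the mean reached 0.5 FPKM, with Benjamini-Hochberg adjustment over all genes at a threshold of 0.05. This scale understates the change of low genes. Transcripts, and the interaction with identifier set, were fitted in the same way. The gene fit was tested on simulated data. TMM factors were computed from the FPKM. Correlations used permutation within groups, two-sided, with 100000 resamples (Python 3.11.15, numpy 2.4.6).

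Depth was inferred from FPKM times length, which moves in steps of 1 base: the chosen step brought 74.0% to 83.6% of low values within 0.05 base of a whole number, and the next best at most 51.7%. At that depth 1 read on 1 kilobase is worth 0.0245 to 0.0304 FPKM. These depths are relative, and no count model was used. P-values measure the spread between animals, whose kinship is not stated. Some animals share the first 9 digits of their identifier, always with an animal of the same IMF group. What these digits mean is not stated. Keeping 1 animal per 9 shared digits left 21 animals.

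Members and lists were chosen with earlier results of these data known. Named genes are the 10 members, the 3 most alike per member, and up to 3 per pathway list by smallest p. Alternatives were TMM and upper-quartile scaling, the pseudocount, the filter, moderation, array weights, identifier set, 1 animal per 9 shared digits, reference transcripts alone and each animal left out. Leaving out high IMF animal 7 and low IMF animal 10 together was chosen after seeing the data.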

Additional observations from a re-analysis of the deposited data

How the results depend on the processing

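No member passed under any alternative (smallest limma adjusted p 0.0989, ELOVL6 with array weights), and 335 of 352 member values kept their sign. Those that turned belonged to ACLY, FADS1 and FADS2. ACLY was 0.013 within the lower-numbered set. FADS1 was 0.0091 with a pseudocount of 0.1, 0.17 within the lower-numbered set, 0.022 with 1 animal per 9 shared digits and -0.077 to 0.062 with 1 animal left out. FADS2 was 0.075, 0.0087 and -0.071 to 0.0036 in the last 3 of these. At an unadjusted p under 0.05 the members numbered 5 to 6 with 1 animal left out and 2 with a mean of at least 5 FPKM, where 3 members are tested. Over all genes, 6 calls became 26 with array weights, 0 within the lower-numbered set, 0 within the higher-numbered set (1015 and 400 genes at an unadjusted p under 0.05), 21 without high IMF animal 7 and low IMF animal 10, and between 3 and 31 when each animal was left out (high IMF animal 5 gave 3, high IMF animal 2 gave 10 and low IMF animal 10 gave 31). At an unadjusted p under 0.05, genes higher and lower in high IMF numbered 798 and 105, and 330 and 275 with TMM scaling. Over all transcripts, 4 calls became 1 with a mean of at least 5 FPKM and 0 to 12 when each animal was left out: low IMF animal 10 gave 12, and 0 to 2 came from leaving out high IMF animal 1, 3, 4, 5, 10 or 11 or low IMF animal 1, 2, 3, 4, 5, 8, 11 or 12. The cause of these changes was not tested. ACACA was under the filter with TMM or upper-quartile scaling, within the lower-numbered set and without some animals, and ACLY has no reference transcript to fit alone. No paired analysis was possible because animal numbers follow accession order and pair no animals. The median values behind ACACA, ACLY and FADS1 rest on about 111 to 156 reads per transcript and library, at the inferred depth.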
